A study of Mus musculus with 2 samples.

Results

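The genes described here are the NF-κB family and its inhibitors, 10 genes in all: the subunits *Nfkb1*, *Nfkb2*, *Rel*, *Rela* and *Relb*, the IκB genes *Nfkbia*, *Nfkbib*, *Nfkbie* and *Nfkbiz*, and *Tnfaip3*. They were chosen by name from the 22605 genes of the deposited table of DNase I hypersensitivity, all 10 were found, and the transcript covering the most windows stood for each gene. Of the 2 libraries, the first came from untreated M1 cells and the other from M1 cells kept in IL-6 for 4 to 5 days. M1 is an established mouse myeloid leukemia line of immature progenitors that turns toward macrophages in IL-6, and both libraries came from cells at passage 15 to 18 grown in horse serum. With 1 library per condition, no difference below has a replicate check and no p-value is given. The intervals are exact 95% Clopper-Pearson intervals of the read numbers. They hold for these libraries and not for the conditions, since counting error is all that they include.

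NF-κB is a family of dimeric transcription factors that share the Rel homology domain. In resting cells IκB proteins hold the dimers in the cytoplasm. Signals from Toll-like, TNF and IL-1 receptors activate the IκB kinase, IκBα is degraded and the dimers enter the nucleus, while a slower route processes p100, the product of *Nfkb2*, and frees RelB dimers. Several of the inhibitors are themselves NF-κB targets, which closes feedback loops, and in macrophages the pathway drives inflammatory cytokine genes.

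DNase I cuts open chromatin first, and the table gives for each transcript the mean and SD of the reads in the 700-bp windows that its coding span, from start to stop codon, touches. Signal at a promoter is therefore seen only where the promoter lies in those windows. The 5′ end of the annotated gene did so for 2 members, *Rel* and *Nfkbie*. Non-overlapping spans held 9101100 reads in the untreated library and 8544732 in the IL-6 library, or 7.58 and 7.12 reads per window, and in the table each read of the IL-6 library counts 1.04. Values of IL-6-treated cells below carry this factor unless they are called unscaled. As a check of the cell type, the 10 myeloid progenitor genes matched lay at a median of the 76.1 percentile of mean signal in untreated cells and 72.9 after IL-6, and the 10 macrophage genes at 55.7 and 49.5. The 6 T-cell genes lay at 61.7 and 73.8, the 5 B-cell genes at 55.4 and 63.8 and the 4 erythroid genes at 54.8 and 53.1. The 3 genes of fibroblasts or stroma lay at 37.8 and 47.2, the 3 liver genes at 30.8 and 30.7, and *Ptprc*, the pan-leukocyte gene, at 50.6 and 29.9. The macrophage list lay below the T-cell list in both libraries, and the progenitor list did so after IL-6. These medians therefore do not identify the cell type. Past a 2-fold change were *Prtn3*, *Cebpa* and *Hoxa9* of the progenitor list, *Cd68* (ratio 0.201), *Cd14* (0.403) and *Fcgr1* (0.423) of the macrophage list, *Cd3d* and *Klf1*, all lower after IL-6. The lists were mixed, since the ratio was 1.65 (1.35 to 2.03) for the macrophage gene *Cd163* and 1.52 (1.24 to 1.88) for the T-cell gene *Cd3e*. The progenitor gene *Gfi1* and the macrophage gene *Spi1* were not matched by name.

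Of the 10 genes, 8 had a lower mean signal after IL-6 and 2, *Rela* and *Tnfaip3*, a higher one. A log2 ratio below 0 was found in 48.3% of the 18473 genes tested, those in which at least 1 library had more than 21 reads. The interval of the ratio lay below 1 for 7 members, against 34.4% of all genes tested, and above 1 for none, against 29.0%. A fall of at least 2-fold was found in 1 member, *Nfkbia*, against 13.4% of all genes, and a rise of that size in 0 members, against 1.71%. The median log2 ratio over the members was -0.66, that of the 5 subunits -0.65 and that of the 4 IκB genes -0.69, against 0.03 over all genes tested. The marker lists had median log2 ratios of -0.67 for myeloid progenitor, -0.38 for macrophage, -0.62 for the 3 erythroid genes tested, 0.31 for T-cell, 0.39 for B-cell, 0.40 for fibroblast or stroma and 0.20 for liver genes, and -0.52 for the pan-leukocyte gene *Ptprc*. The part of cell state in the members' values was not tested. A site closed in some of the cells and a site less open in each cell cannot be told apart in these bulk libraries.

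These directions hold on the scale of the table and for the transcript with the most windows. When the libraries were scaled on 573 strong single windows instead, every log2 ratio moved up by 1.80. The filter used scaled reads, so the genes tested were not the same set, and their median went from 0.03 to 1.87. All 10 members were then higher after IL-6, with a median log2 ratio of 1.15. Over the genes then tested, 20 fell and 17564 rose by 2-fold or more, in place of 2475 and 315. The median of the members stayed below that of the genes tested, as it does under any common factor on a fixed set of genes. Contrasts within a gene, given below as the 5′ part against the rest, do not depend on the scaling. On the scale of the table, the transcript with the fewest windows gave 3 members at least 2-fold lower. It turned the direction of *Rela* (0.785), *Nfkbiz* (1.36) and *Tnfaip3* (0.661), with intervals that hold 1.

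The level of signal set the members apart more in untreated cells than after IL-6. In untreated cells their means ran from 5.93 reads per window at *Tnfaip3* to 54.5 at *Nfkbia*, a range of 9.19-fold, and in IL-6-treated cells from 5.73 at *Rel* to 25.2 at *Nfkbia*, a range of 4.39-fold. *Nfkbia* and *Nfkbib* held the first and second place in both libraries. In untreated cells 3 steps of the order were larger than counting error: *Nfkbia* above *Nfkbib* (2.52-fold, 2.09 to 3.02), *Nfkb2* above *Rela* (1.62-fold, 1.28 to 2.05) and *Rel* above *Tnfaip3* (1.52-fold, 1.19 to 1.95). After IL-6 the step from *Nfkbia* to *Nfkbib* (1.84-fold, 1.42 to 2.39) was the single one whose interval excluded 1. *Rel* was the ninth member in untreated cells and the last after IL-6.

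**Figure D1:**
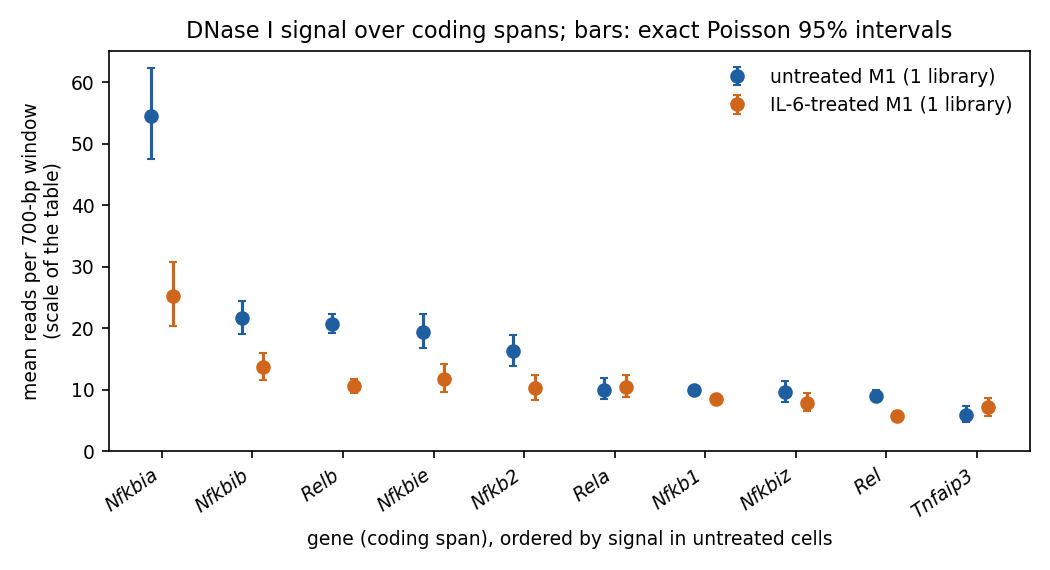
Mean reads per 700-bp window over the coding span of each gene in untreated and IL-6-treated M1 cells (1 library each, vertical axis from 0). Points are means and bars exact Poisson 95% intervals, and *Nfkbia* stands above the other genes with 54.5 and 25.2 reads per window.

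Among the subunits, *Relb*, the partner of p52 in the slower route, showed the strongest fall. The gene lies on the minus strand of chromosome 7 from 20191566 to 20214787 on NCBIM37. Its 33 windows held 682 reads in untreated cells and 334 unscaled reads in IL-6-treated cells, which are means of 20.7 (SD between windows 55.6) and 10.5 (SD 11). The ratio was 0.508 (0.445 to 0.580) and the log2 ratio -0.97, just inside the 2-fold limit. Transcripts of *Relb* that start at the same codon and end at different places separate 3 stretches. The 14 windows at the 5′ end (20204801 to 20214600, exons 1 to 4) made up 42.4% of the windows and held 66.9% of the reads in untreated cells and 56.6% after IL-6. They went from 456 to 196 scaled reads, a ratio of 0.430 (0.361 to 0.511). The next 4 windows, around exon 5, went from 57 to 27.0 (ratio 0.474, 0.286 to 0.766), and the 15 windows over exons 6 to 12 went from 169 to 124 (ratio 0.731, 0.573 to 0.930). The interval of the 3′ stretch thus lay above that of the 5′ stretch, and the interval of the 4 windows between them overlapped both.

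The mean and SD of the 5′ stretch of *Relb* also bound its strongest window. That window held between 278 and 328 reads in untreated cells, and the strongest window held between 32.2 and 68.5 after IL-6. The other windows of the stretch averaged 9.85 to 13.7 reads in untreated cells and 9.82 to 12.6 after IL-6. Most of the difference in this stretch thus lay in its strongest window, while the ranges of the other windows overlapped. The strongest windows of the libraries need not be the same window. The stretch holds 4 annotated transcript starts, and the outermost gene start at 20214787 lies just beyond it.

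*Nfkb2*, which encodes p100 and p52, lies on the plus strand of chromosome 19 from 46379227 to 46386580. Its 10 windows held 162 reads in untreated cells and 98 unscaled reads after IL-6, means of 16.2 (SD 12.7) and 10.2 (SD 2.12) and a ratio of 0.628 (0.484 to 0.812). After IL-6 the signal was flat along the gene. In unscaled reads, the variance between windows was 10.0 times the mean in untreated cells and 0.426 times the mean after IL-6, a lower value than in all but 1.75% of the genes tested, whose medians were 6.32 and 3.83. The strongest window went from between 26 and 52 reads to between 11.4 and 15.6, so that after IL-6 no window of *Nfkb2* passed 21 scaled reads. The methods use a count above 21 reads for a hypersensitive site. They do not give the width counted, so a 700-bp window may not be the same measure. The first 9 windows (46379901 to 46386200, exons 2 to 22) went from 157 to 91.4 scaled reads, a ratio of 0.582 (0.443 to 0.760). The last window, in exon 23, had 5 and 10 unscaled reads, a ratio of 2.08 whose interval of 0.647 to 7.74 leaves its direction undecided.

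The promoters of *Nfkb2* are shown because their sequence holds κB letters and because the inner ones lie wholly inside the first window of the span. Sequences here and below are RefSeq promoters of GRCm38.p6, 250 bases before to 50 after a start site, placed on NCBIM37 by exact match, written 5′ to 3′ along the gene, and capitals mark GGGANTTCC, or the same letters with 1 more T in the run of T, on either strand. The outer promoter is at chr19:46378977-46379276, plus strand, upstream of the windows, and the inner one shown is at chr19:46379935-46380234, plus strand. Another inner promoter, at chr19:46380170-46380469, also lies wholly in the windows, overlaps the one shown and holds the same κB letters.
Nfkb2 outer promoter: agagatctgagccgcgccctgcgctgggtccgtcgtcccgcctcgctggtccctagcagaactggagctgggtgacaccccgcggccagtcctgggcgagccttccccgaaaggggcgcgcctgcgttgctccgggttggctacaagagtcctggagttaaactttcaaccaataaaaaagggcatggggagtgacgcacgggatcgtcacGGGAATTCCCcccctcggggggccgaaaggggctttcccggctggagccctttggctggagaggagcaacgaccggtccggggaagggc
Nfkb2 inner promoter: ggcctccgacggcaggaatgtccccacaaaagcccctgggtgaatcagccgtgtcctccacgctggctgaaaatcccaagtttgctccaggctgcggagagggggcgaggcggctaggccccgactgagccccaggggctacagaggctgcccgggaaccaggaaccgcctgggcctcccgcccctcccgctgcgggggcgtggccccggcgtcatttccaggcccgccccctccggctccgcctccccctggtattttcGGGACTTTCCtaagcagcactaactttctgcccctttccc

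*Nfkb1* encodes p105 and p50 and has the longest span of the family, 119 windows. The gene lies on the minus strand of chromosome 3 from 135247619 to 135354511, and its start codon is 23762 bp inside the gene, so the signal at its first exons is not analyzed here. The windows held 1184 reads in untreated cells and 973 unscaled reads after IL-6, means of 9.95 (SD 11.6) and 8.49 (SD 6.02). The ratio of 0.853 (0.783 to 0.929) was close to 1. This small fall came from the inside of the gene. The 26 windows from 135253301 to 135271500, which cover exons 13 to 23 and hold 4 annotated transcript starts, went from 457 to 278 scaled reads, a ratio of 0.609 (0.522 to 0.709). The 85 windows on their 5′ side had 644 reads in both libraries after scaling, a ratio of 0.999 (0.894 to 1.12). The 8 windows at the 3′ end went from 83 to 88.2, a ratio of 1.06 (0.776 to 1.46). The inner stretch also had the highest mean in untreated cells, 17.6 reads per window against 7.58 on its 5′ side and 10.4 on its 3′ side, and its strongest window held 41 to 117 reads before and 18.7 to 52.9 after IL-6.

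*Rel* encodes c-Rel, a subunit made mainly in blood cells. It lies on the minus strand of chromosome 11 from 23641514 to 23670970, and its single listed span includes the start of the gene. The 42 windows held 378 reads in untreated cells and 232 unscaled reads after IL-6, means of 9.0 (SD 24.2) and 5.73 (SD 9.20) and a ratio of 0.637 (0.539 to 0.752). *Rel* thus had a low mean and a high peak. Its strongest window held between 74 and 161 reads in untreated cells and between 20.8 and 63.3 after IL-6, while the other windows averaged 5.29 to 7.41 and 4.33 to 5.37. Among the 6483 genes with a mean of 5 to 10 reads over both libraries, 7.74% had a lower log2 ratio than the -0.65 of *Rel*. Its promoter is shown because it holds κB letters and 281 of its 300 bases lie inside the windows. It is at chr11:23670920-23671219, minus strand.
Rel promoter: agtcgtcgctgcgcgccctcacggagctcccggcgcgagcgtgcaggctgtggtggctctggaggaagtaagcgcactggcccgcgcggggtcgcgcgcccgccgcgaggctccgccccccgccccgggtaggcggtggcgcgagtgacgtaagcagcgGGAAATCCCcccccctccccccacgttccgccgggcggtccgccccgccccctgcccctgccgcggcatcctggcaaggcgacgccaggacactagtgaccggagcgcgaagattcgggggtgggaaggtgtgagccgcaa

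*Rela* encodes p65, the subunit of the common p50 and p65 dimer, and lies on the plus strand of chromosome 19 from 5637483 to 5648130. Its 14 windows held 140 reads in untreated cells and 141 unscaled reads after IL-6, means of 10.0 (SD 5.68) and 10.5 (SD 5.11). The ratio was 1.05 (0.822 to 1.33), and its interval excludes a change of 2-fold in either direction on this scale. The bounds of its strongest window overlapped, with 14 to 29 reads in untreated cells and 13.5 to 28 after IL-6. The 4 windows at the 5′ end (exons 1 to 6) went from 41 to 32.2 scaled reads (ratio 0.785, 0.476 to 1.28) and the other 10 from 99 to 114 (ratio 1.15, 0.871 to 1.53). Both intervals hold 1.

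*Nfkbia* encodes IκBα, the inhibitor that is degraded and made anew with each round of NF-κB activity. It lies on the minus strand of chromosome 12 from 56590398 to 56593634, and with 4 windows it has the shortest span. These held 218 reads in untreated cells and 97 unscaled reads after IL-6, means of 54.5 (SD 56.7) and 25.2 (SD 17.6). The ratio was 0.462 (0.360 to 0.589) and the log2 ratio -1.11. In spite of this fall *Nfkbia* kept its place among all genes, at the 96.3 percentile of mean signal in untreated cells and the 96.5 percentile after IL-6. Strong genes fell in general: among the 2015 genes with a mean of 20 to 40 reads over both libraries the median log2 ratio was -0.94, 46.6% were at least 2-fold lower, and 40.2% had a lower log2 ratio than *Nfkbia*. With an average of 39.8 reads *Nfkbia* stood at the upper edge of that class, and in the next class, at 40 reads and above, the median was -1.76 and 93.1% were at least 2-fold lower. In a list of all sets of whole numbers with the sum and SD of its 4 windows, the strongest window had 104 to 139 reads in untreated cells and 43.6 to 49.8 after IL-6, and the weakest 1 to 18 and 2.08 to 8.31. On both values, 178 other genes could not be told from *Nfkbia* beyond counting error, so no gene is named as the one most like it.

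The promoter of *Nfkbia* is shown because the gene is a classical NF-κB target. It lies at chr12:56593585-56593884, minus strand, and 16 of its 300 bases fall inside the windows.
Nfkbia promoter: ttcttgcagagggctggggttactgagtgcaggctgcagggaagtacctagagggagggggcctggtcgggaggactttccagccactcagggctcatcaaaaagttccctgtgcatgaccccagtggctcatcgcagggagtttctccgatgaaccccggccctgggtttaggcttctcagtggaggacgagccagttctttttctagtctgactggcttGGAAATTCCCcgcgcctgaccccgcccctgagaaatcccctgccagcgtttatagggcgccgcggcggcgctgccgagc

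*Nfkbib* encodes IκBβ and lies on the minus strand of chromosome 7 from 29543270 to 29552531. Its 12 windows held 260 reads in untreated cells and 158 unscaled reads after IL-6, means of 21.7 (SD 26.7) and 13.7 (SD 9.17) and a ratio of 0.631 (0.514 to 0.772). The interval lay below 1 at the 5′ end of the gene and held 1 at its 3′ end. The 8 windows at the 5′ end (29546301 to 29551900, exons 1 to 3) went from 203 to 94.5 scaled reads, a ratio of 0.465 (0.359 to 0.599). The 2 windows after them had 13 and 7 reads in untreated cells and 16 and 7 unscaled reads after IL-6. The last 2 windows had 25 and 12 reads in untreated cells and 27 and 17 unscaled reads after IL-6. The ratios of these pairs of windows were 1.19 (0.627 to 2.29) and 1.23 (0.779 to 1.97). Within the 5′ stretch the strongest window went from between 65 and 105 reads to between 18.7 and 34.3, and the others from an average of 14.0 to 19.7 to one of 8.60 to 10.8. The first window is shared with the start of *Sirt2*, a deacetylase gene on the other strand, and reads there cannot be assigned to either gene.

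*Nfkbie* encodes IκBε and lies on the plus strand of chromosome 17 from 45692665 to 45700118, with its start inside the span. Its 10 windows held 194 reads in untreated cells and 113 unscaled reads after IL-6, means of 19.4 (SD 16.3) and 11.7 (SD 6.69) and a ratio of 0.605 (0.475 to 0.766). Both the peak and its surroundings were lower. The strongest window went from between 32 and 65 reads to between 16.6 and 30.1, and the others from an average of 14.3 to 18.0 to one of 9.69 to 11.2. The single listed transcript gives no further division of the span.

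*Nfkbiz* encodes IκBζ, a nuclear IκB that acts as a cofactor at a subset of NF-κB targets. It lies on the minus strand of chromosome 16 from 55811488 to 55839012, and the start codon of the transcript used is 16846 bp inside the gene. Over its 14 windows, 134 reads in untreated cells and 106 unscaled reads after IL-6 gave means of 9.57 (SD 10.2) and 7.86 (SD 5.80) and a ratio of 0.821 (0.630 to 1.07), an interval that holds 1. The stretches of the gene differed from each other. The 3 windows at the 5′ end (55820101 to 55822200, exon 3) had 37, 22 and 21 reads in untreated cells and 20, 10 and 5 unscaled reads after IL-6, in order of size. Their ratio was 0.454 (0.296 to 0.684). The 11 windows behind them went from 54 to 73.7 scaled reads, a ratio of 1.36 (0.945 to 1.98).

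*Tnfaip3* encodes A20, a ubiquitin-editing enzyme that shuts NF-κB signaling down. It lies on the minus strand of chromosome 10 from 18720716 to 18735463. Its 14 windows held 83 reads in untreated cells and 96 unscaled reads after IL-6, means of 5.93 (SD 3.02) and 7.12 (SD 3.25) and a ratio of 1.2 (0.886 to 1.63). *Tnfaip3* was the one member that certainly had no window above 21 reads in either library, since its strongest held at most 16 and 17.6. It was also the single member whose SD between windows was not lower after IL-6. The window at the start codon (18731301 to 18732000), which contains most of an inner RefSeq promoter, had 11 reads in untreated cells and 7 unscaled reads after IL-6, and the next 5 windows went from 27 to 23.9 scaled reads. The 8 windows at the 3′ end went from 45 to 68.5, a ratio of 1.52 (1.03 to 2.28), the highest of any stretch of the family whose interval excluded 1. The outer promoter is shown for its κB letters. It is at chr10:18735167-18735466, minus strand, outside the windows, and the signal there is not analyzed here.
Tnfaip3 outer promoter: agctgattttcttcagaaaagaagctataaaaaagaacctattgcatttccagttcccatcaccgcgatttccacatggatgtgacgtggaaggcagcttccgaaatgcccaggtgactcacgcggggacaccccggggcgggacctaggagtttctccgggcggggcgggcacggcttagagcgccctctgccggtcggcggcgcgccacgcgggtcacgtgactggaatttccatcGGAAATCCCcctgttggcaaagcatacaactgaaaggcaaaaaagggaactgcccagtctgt

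Promoter sequences were found for 7 of the 10 members. GGGANTTCC or its form with 1 more T, searched on both strands, occurred in a promoter of 4 of them, *Nfkb2*, *Rel*, *Nfkbia* and *Tnfaip3*. Of 32851 promoters of 300 bases, 1.68% held the first and 0.411% the second motif, and 2.08% held either. That share is per promoter, while the members are counted as genes with 10 promoters in all, of which *Nfkb2* has 3. A looser motif, GGG and CC with any 5 bases between them, which includes the second motif and can overlap the first, occurred in 50.8% of all promoters and in those of 6 members, *Nfkbib* being the exception. These are matches of letters and not measured sites of binding. Of the 4 genes with a match, *Nfkb2*, *Rel* and *Nfkbia* had ratios of 0.628, 0.637 and 0.462, and *Tnfaip3* had 1.2. Of those with a promoter sequence but no match, *Nfkbib* had 0.631, *Nfkbie* 0.605 and *Rela* 1.05.

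**Figure D2:**
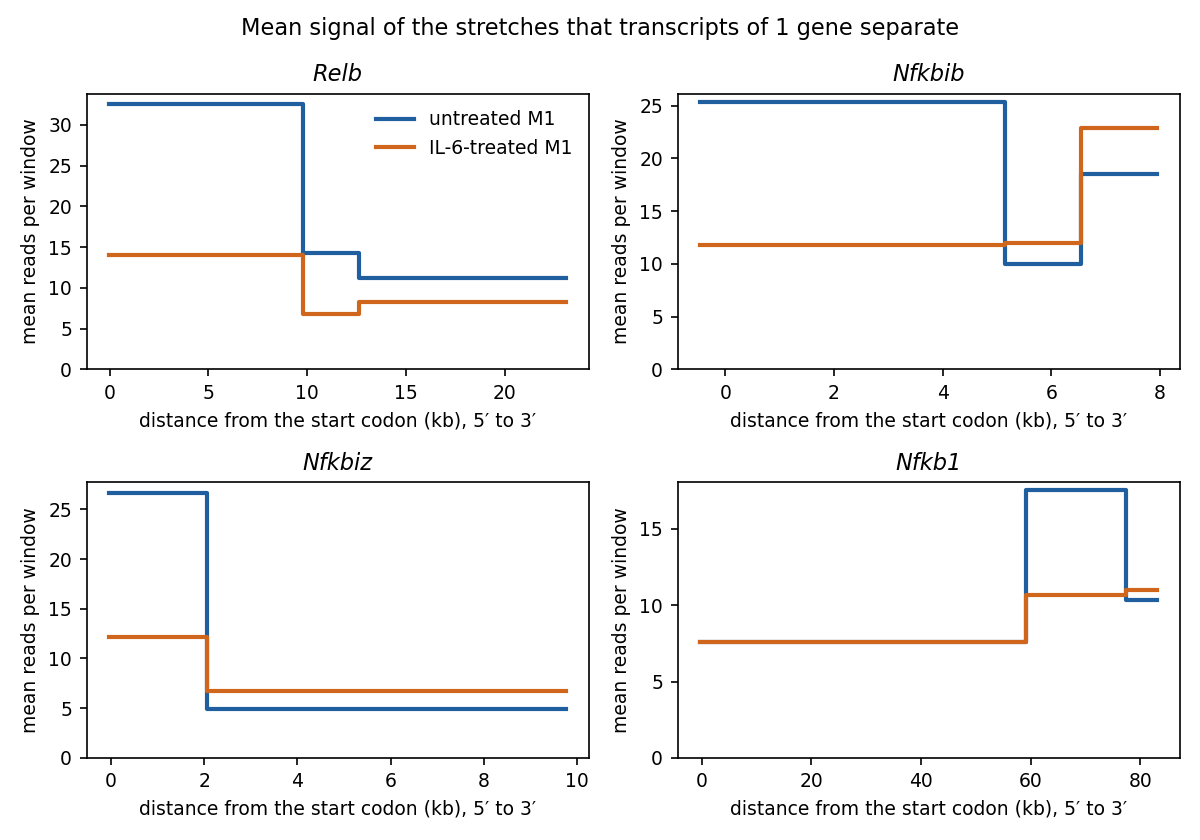
Mean reads per window (vertical axes from 0) along the coding spans of *Relb*, *Nfkbib*, *Nfkbiz* and *Nfkb1*, plotted by distance from the start codon in kb, for untreated and IL-6-treated M1 cells. Each horizontal segment is a stretch that transcripts of the gene separate, and the segments at the 5′ end of *Relb*, *Nfkbib* and *Nfkbiz* and in the inner part of *Nfkb1* are lower after IL-6.

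For 7 members the part of the span nearest the start codon could be set against the rest. The ratio after IL-6 was lower in the 5′ part in 6 of them, with *Nfkb1* as the exception, against 66.4% of 7742 genes that could be divided in the same way. The interval of the ratio of ratios lay below 1 in 4 members, against 32.0% of these genes, and above 1 in 1 member, against 6.69%. The ratio of ratios was 0.282 (0.0731 to 0.939) in *Nfkb2*, where the 5′ part is 9 of the 10 windows and the rest 1 window of 5 and 10 unscaled reads, 0.334 (0.188 to 0.585) in *Nfkbiz*, 0.382 (0.242 to 0.601) in *Nfkbib* and 0.646 (0.490 to 0.853) in *Relb*. It was 1.47 (1.23 to 1.76) in *Nfkb1*, where the 5′ part is 59.5 kb long. In *Tnfaip3* (0.517, 0.161 to 1.55) and *Rela* (0.681, 0.382 to 1.21) the intervals hold 1. A lower ratio in the 5′ part was also the more common direction over all genes.

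**Figure D3:**
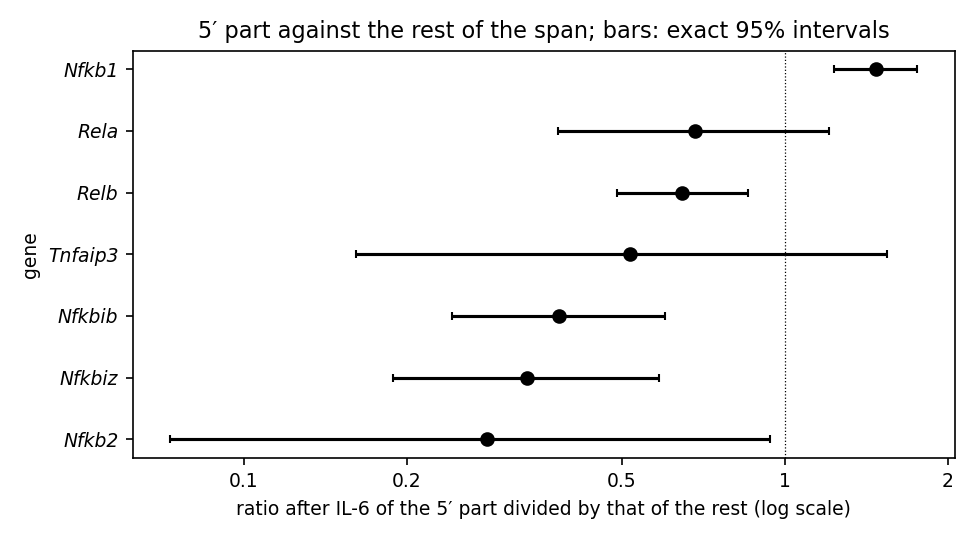
Ratio after IL-6 of the 5′ part of the span divided by that of the rest, for the 7 genes that could be divided (log axis). Points are exact conditional estimates and bars their exact 95% intervals, which lie below 1 for *Nfkb2*, *Nfkbiz*, *Nfkbib* and *Relb* and above 1 for *Nfkb1*.

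The strongest window of the whole span was lower after IL-6, with bounds that do not overlap, in 6 members, *Nfkb2*, *Rel*, *Relb*, *Nfkbia*, *Nfkbib* and *Nfkbie*, against 28.1% of 18318 genes of more than 1 window. In *Relb* and *Nfkbia* the bounds made a fall of at least 2-fold certain, against 14.4% of these genes. In *Nfkb2*, *Rel*, *Nfkbib* and *Nfkbie* the bounds do not decide whether the fall reached 2-fold. It was higher in the same sense in 0 members, against 6.93%. The shorter stretches add *Nfkbiz*, whose strongest 5′ window went from 37 to 20.8 reads. From the bounds of the whole span alone, a window above 21 reads was certain in 7 members in untreated cells, against 43.3% of all genes, and in 2 members, *Relb* and *Nfkbia*, after IL-6, against 23.1%. The windows recovered from shorter stretches, which these shares do not use, add *Nfkbiz* in untreated cells, with 37 reads, and *Nfkbib* after IL-6, with 27 unscaled reads. The SD between windows was lower after IL-6 in 9 members, against 63.0% of all genes, and the median ratio of the SDs was 0.396 in the family and 0.763 over all genes. In unscaled reads, the median over all genes of the variance between windows divided by the mean was 6.32 in untreated cells and 3.83 after IL-6, against 13.6 and 4.12 in the family. The IL-6 library as a whole thus had less contrast between windows, and its part in the members' values was not tested.

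**Figure D4:**
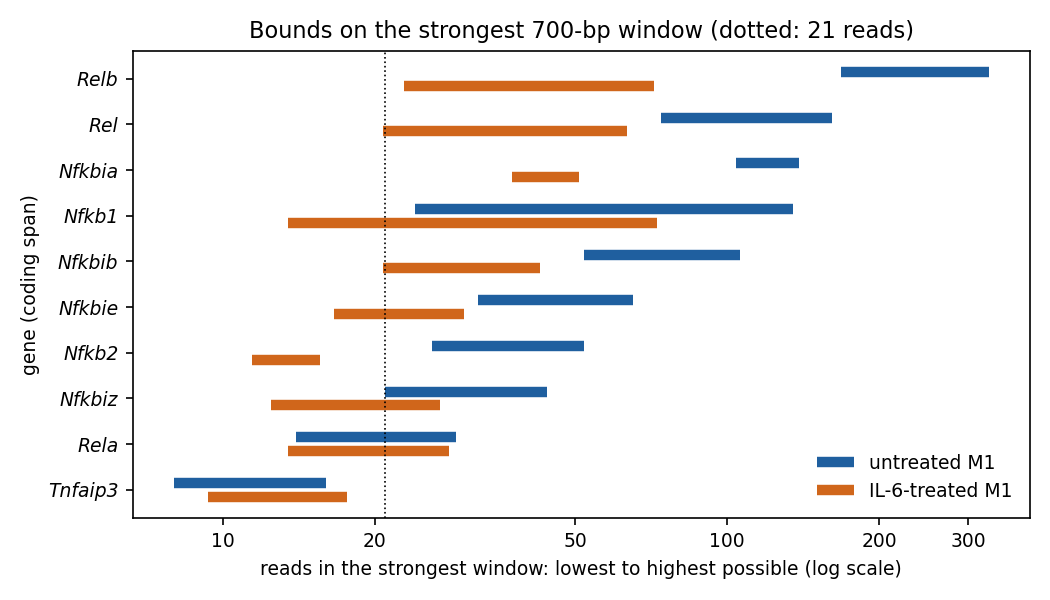
Lowest to highest possible number of reads in the strongest 700-bp window of each coding span (log axis) in untreated and IL-6-treated M1 cells. The bars of *Relb*, *Rel*, *Nfkbia*, *Nfkbib*, *Nfkbie* and *Nfkb2* do not overlap between the libraries, and the dotted line marks 21 reads.

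The change depended on the level of signal in all genes. Median log2 ratios went from 0.37 in genes with fewer than 5 reads per window, averaged over both libraries, to 0.17 at 5 to 10, -0.11 at 10 to 20, -0.94 at 20 to 40 and -1.76 at 40 and above. Of the 4 members at 5 to 10 reads, *Rel* (-0.65), *Nfkbiz* (-0.28) and *Nfkb1* (-0.23) were below the median of their level and *Tnfaip3* (0.26) was above it. Of the 5 members at 10 to 20 reads, *Relb* (-0.97), *Nfkbie* (-0.72), *Nfkb2* (-0.67) and *Nfkbib* (-0.66) were below and *Rela* (0.06) was above it. *Nfkbia*, at 39.8 reads, was the one member in the next class. The share of genes of the same class with a lower log2 ratio was 7.74% for *Rel*, 10.9% for *Relb*, 18.9% for *Nfkbie*, 19.6% for *Nfkbiz*, 21.1% for *Nfkb2*, 21.3% for *Nfkbib*, 22.2% for *Nfkb1*, 40.2% for *Nfkbia*, 58.9% for *Tnfaip3* and 61.8% for *Rela*.

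**Figure D5:**
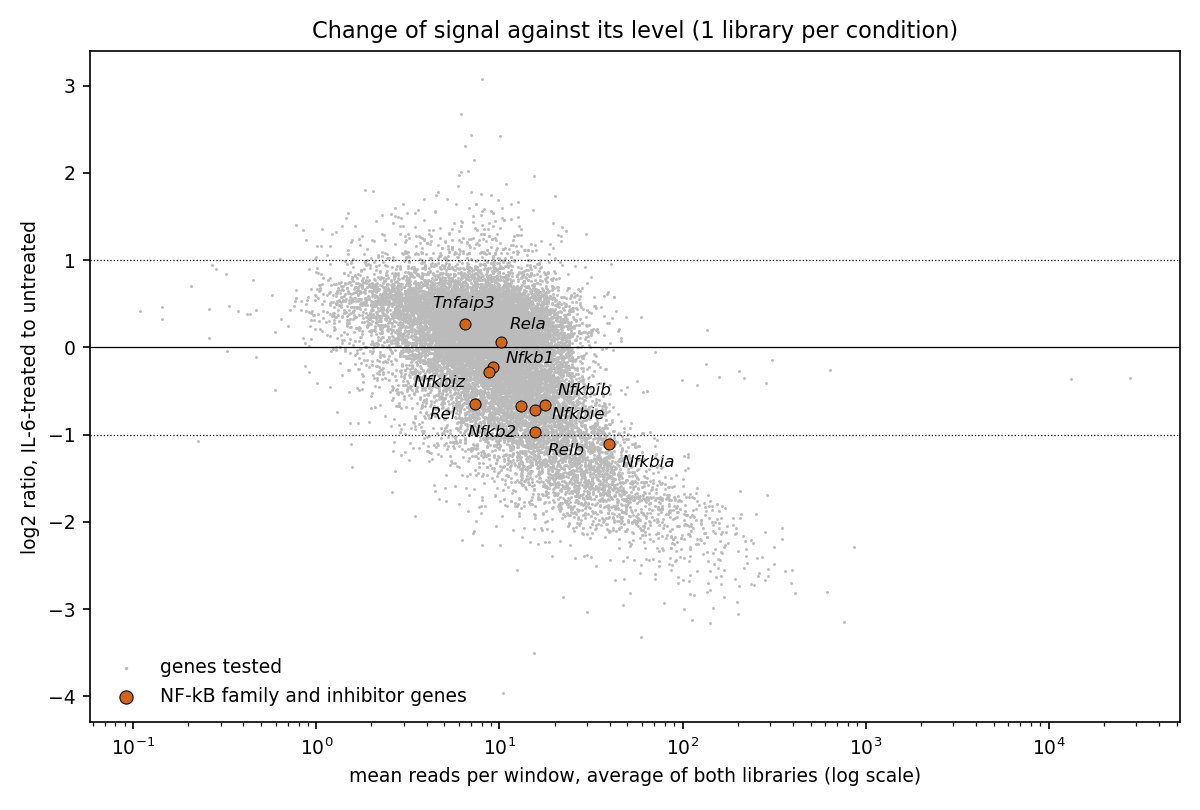
Log2 ratio of IL-6-treated to untreated cells against the mean reads per window of both libraries (log axis) for all genes tested (gray) and the 10 members (orange), with dotted lines at a 2-fold change. The cloud bends downward at high signal, and *Nfkbia*, at -1.11, is the one member past the lower line.

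Genes that act with the family were taken as 70 genes in 5 lists. Past a 2-fold change after IL-6 were 10 of them downward and 1 upward, against the 13.4% and 1.71% of all genes given above, and the median log2 ratio was -0.19. The interval of the ratio lay below 1 for 31 of the 70 and above 1 for 10, against 34.4% and 29.0% of all genes. By list, intervals below and above 1 numbered 3 and 1 of 8 upstream kinases, 6 and 2 of 17 adaptors and ubiquitin ligases, 8 and 2 of 14 other inhibitors and deubiquitinases, 6 and 1 of 10 receptors, and 9 and 4 of 23 targets. *Traf1* and *Birc3* stand in both the adaptor and the target list and count once among the 70. Of the 8 kinases upstream of IκB, *Ikbkg*, the regulatory subunit of the IκB kinase, was past 2-fold, with 301 and 130 unscaled reads and a ratio of 0.448 (0.362 to 0.553). In the same list *Map3k8* went the other way, with 128 and 232 unscaled reads and a ratio of 1.88 (1.51 to 2.35). Of the 17 adaptors and ubiquitin ligases, *Myd88*, the adaptor of Toll-like and IL-1 receptors, went from 198 to 95 unscaled reads, a ratio of 0.498 (0.386 to 0.639). Of the 14 other inhibitors and deubiquitinases, *Nfkbil1* was past 2-fold, with a ratio of 0.306 (0.275 to 0.340).

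Of the 10 receptors, *Cd14*, the coreceptor for lipopolysaccharide, had a ratio of 0.403 (0.293 to 0.548) and *Tnfrsf13c*, the BAFF receptor, one of 0.474 (0.359 to 0.622). Of the 23 target genes, 5 were at least 2-fold lower. They were the AP-1 gene *Junb* (ratio 0.240), the cytokine gene *Tnf* (0.297), the chemokine gene *Ccl3* (0.305), *Sod2*, which encodes mitochondrial superoxide dismutase (0.335), and the early response gene *Ier3* (0.486). The chemokine gene *Ccl2* was the one gene of the lists past 2-fold upward, with 10 and 26 unscaled reads and a ratio of 2.70 (1.26 to 6.27). *Tnf*, *Ccl3* and *Junb* lay at the 98.3, 97.7 and 99.3 percentile of mean signal in untreated cells and at the 97.7, 95.6 and 99.2 percentile after IL-6, and *Ier3* at 93.9 and 91.6. *Sod2* went from the 89.4 to the 54.5 percentile. *Tnf*, *Ccl3*, *Junb*, *Nfkbil1* and *Tnfrsf13c* averaged over 40 reads per window, a class in which 93.1% of all genes were at least 2-fold lower, and *Myd88*, *Cd14* and *Ier3* averaged 20 to 40, where that share was 46.6%. *Sod2* averaged 10 to 20, where it was 10.3%, and *Ikbkg* 5 to 10, where it was 2.67%. Upward among the targets, with intervals above 1 but short of 2-fold, were the chemokine gene *Ccl5* (1.63, 1.21 to 2.20), the adhesion gene *Vcam1* (1.52, 1.17 to 1.98) and *Nos2*, which encodes inducible nitric oxide synthase (1.32, 1.18 to 1.49). In the other lists, besides *Map3k8*, such intervals were found for the adaptors *Traf3* and *Traf5*, for *Tnip3* and *Cyld* of the other inhibitors and deubiquitinases, and for the receptor *Tlr4*. Apart from *Map3k8*, the ratios in those lists ran from 1.16 (1.03 to 1.31) for *Tlr4* to 1.37 (1.12 to 1.67) for *Tnip3*.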

How the data were processed

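DNase I was added to nuclei, and short fragments from a sucrose gradient were read on an Illumina machine. Adaptors and poor bases were removed, and the authors used BWA (version not given in the sources used here) to place reads on NCBIM37. Their methods name Seqmonk for plots. The deposited values are signal, per the file headers a mean and SD for each of 55432 transcripts, and the window numbers of all rows were those of 700-bp tiles over the span. A column headed as an average was empty and was not used.

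Reads were recovered as mean times number of windows, divided by the value of 1 read (1 in untreated cells, 1.03816 in IL-6-treated cells), and came within 0.05 of a whole number in 100% of the rows. The sum of squared reads followed from the SD. Both bound the strongest window. Differences between transcripts gave 40253 stretches, and 0 of 22758 repeated links disagreed. On simulated windows of chromosome 19, the method returned 1586 of 1586 rows and 1169 of 1169 stretches, and of 197 genes simulated with a change the true value lay in the interval for 188. The simulated libraries differed by counting error and the set change alone. This checks the calculation and not the spread between real libraries. The member spans equaled GENCODE M1 coding spans in 30 of 30 rows.

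Log2 ratios add 0.5 reads to each library. A gene was tested where at least 1 library had more than 21 reads after scaling. No test across libraries was possible. The scaling in the table, which the sources used here do not describe, was kept. Alternatives covered scaling, reads added, filter, fold and transcript. The members, gene lists and rules were chosen with earlier results of these data known. All members are named, and of each pathway and marker list the genes past 2-fold. The other pathway genes with intervals above 1, and *Cd163*, *Cd3e* and *Ptprc*, were added after their values were seen. Python 3.11.15, numpy 2.4.6, pandas 2.3.3, scipy 1.17.1 and matplotlib 3.10.9 were used.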

Additional observations from a re-analysis of the deposited data

How the results depend on the processing

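No paired analysis was possible because there was a single library on each side. The scaling on single windows with more than 21 reads in both libraries was chosen after seeing the data and reversed directions. With it the ratios were 2.98 for *Nfkb1*, 2.19 for *Nfkb2*, 2.22 for *Rel*, 3.65 for *Rela*, 1.77 for *Relb*, 1.61 for *Nfkbia*, 2.20 for *Nfkbib*, 2.11 for *Nfkbie*, 2.87 for *Nfkbiz* and 4.19 for *Tnfaip3*. The median log2 ratio of the members became 1.15 and that of the genes then tested 1.87. The filter used scaled reads, so the set of genes tested was not the same under each scaling. Members at least 2-fold lower became 0 and at least 2-fold higher 8, listed pathway genes 0 and 57, and all genes 20 and 17564. The median of those windows had 3.62 times as many reads in untreated as in IL-6-treated cells, unscaled. The total over coding spans and the median of ratios over genes kept the members' ratios within their intervals and the numbers of genes within 1.5 times, and so did no scaling except that 2 members, with *Relb*, were then at least 2-fold lower. The median log2 ratio of all genes, 0.03, was 0.07 with the total over coding spans and -0.03 with no scaling.

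The transcript with the fewest windows covers another part of a gene. With it the ratios were 0.679 for *Nfkb1*, 0.785 for *Rela*, 0.430 for *Relb*, 0.465 for *Nfkbib*, 1.36 for *Nfkbiz* and 0.661 for *Tnfaip3*, and 3 members were at least 2-fold lower. With a fold of at least 1.5, 6 members, 20 pathway genes and 4288 genes in all were lower, and 4 pathway genes and 2000 genes in all higher. Genes at least 2-fold higher numbered 176 with 5 reads added, 1091 with no filter and 97 with more than 50 reads. Of 97 alternative values over 18 results, 63 kept within these limits. Depth limits the short stretches most, such as the last window of *Nfkb2* and the first of *Tnfaip3*.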
